A study of Mus musculus with 24 samples.

Results

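The ventral root carries the efferent nerve fibres (EN), which are the axons of spinal motor neurons with the Schwann cells that wrap them, and this comparison follows those fibres in the mouse from the day of birth (P0) to 5 weeks (5 W). The arrays were chosen by their labels alone, as the 3 labelled EN at 5 W and the 3 labelled EN at P0, which are 6 of the 24 arrays of the series. The remaining arrays hold EN at 1 W and 3 W and the dorsal root, whose fibres are afferent (AN), at all 4 ages, and were used only to place the EN changes in time and against AN. Every group was C57BL/6 tissue, with no transgene or treatment named, dissected at the lumbar segments L4 to L6 from animals of both sexes. Per the methods, 9 animals were used per time point and their fibres were pooled by group, so a value describes pooled tissue of many cell types rather than single animals. The methods also state that each group was assessed in 3 independent experiments, without saying how animals were divided among them. The labels number the arrays of a group from 1 to 3 and do not tie them to animals, so p values here measure the spread between these arrays, which may in part be technical.

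A motor axon leaves the spinal cord through the ventral root while its cell body stays in the cord. Immature Schwann cells in the young root sort axons, stop dividing and, under the transcription factor Egr2 (Krox20), switch on genes for the proteins and the very large amounts of cholesterol and galactolipid that make up compact myelin. Fibroblasts, vessels and macrophages fill the space between the fibres, and the root is bounded by meningeal cells.

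Each array carried 1 labelled RNA sample, and the authors' quantile-normalized log2 value of each probe is called its level below. A level has no scale that is shared between probes, so levels are set side by side only for the same probe. A probe was tested where its spot was well above the local background on all 3 arrays of at least 1 stage. It was called where limma's Benjamini-Hochberg adjusted p was below 0.05 with a fold change above 2, and only called genes are said to have risen or fallen. Differences are log2 values, 5 W minus P0, with the standard error (SE) of the fit (n = 3 arrays per stage). Probe positions are those of the scanner files, on mm9. Each gene is given through its tested probe of highest mean level, except among the largest changes, bounds and root differences, where it is given through the probe that moved most, and where a probe is singled out. The median of a gene list covers all its members on the array, tested or not.

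Between 57.0% and 68.6% of the gene spots of an EN array were well above background, with a median signal of 48.2 to 169 over a median local background of 27.5 to 43. Levels of 2 P0 arrays correlated across probes at r = 0.985 to 0.987, those of 2 5 W arrays at 0.963 to 0.981, and those of a P0 and a 5 W array at 0.853 to 0.894. Replicate 3 at 5 W stood apart from the other two of its stage, lying more than 3 log2 units below both for 259 tested probes, whereas no other EN array lay that far below its group for more than 5 probes. Of those 259 probes 4 were called, but the wide spread by which they were picked itself makes a call unlikely. The 5 W replicate 1 shared a scan day with P0 replicate 1, and the 5 W replicate 2 shared a slide with P0 replicates 2 and 3. Within that scan day and that slide the log2 difference was 7.92 and 9.04 for Plk5, the largest rise measured on all 6 arrays, and -6.95 and -7.17 for H19, the largest such fall.

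The label of the tissue was checked against marker genes. All 10 markers of myelinating Schwann cells were above background on all 6 arrays, and the summed linear signal of these probes was 719000 to 778187 at P0 and 1091097 to 1181446 at 5 W. Markers of cells that the ventral root should not hold were also present at P0. All 10 markers of sensory neurons, whose cell bodies lie in the dorsal root ganglion, were above background on each P0 array, with levels in EN that differed from those in AN at P0 by a median of -0.34 (range -0.52 to 0.01). Their summed signal was 15218 to 24014 at P0 and 1049 to 1326 at 5 W, and 7 of the 10 fell (3 of the 5 above background on all 6 arrays). All 8 markers of spinal interneurons were above background at P0 (summed signal 18606 to 25572, against 3719 to 13040 at 5 W) and 6 fell (4 of the 6 above background on all 6 arrays). Of 14 skeletal muscle markers, 13 were above background on every P0 array (173945 to 444683, against 26370 to 60310 at 5 W), 9 fell and 1, Myh4, rose, and their P0 levels in EN were above those in AN by a median of 1.17. Of the 12 muscle markers above background on all 6 arrays, 8 fell and none rose. Of 8 motor neuron markers, 6 were above background on every P0 array and 4 on every 5 W array, while Mnx1 was on no array of either stage. Of the 6 tested, 1 rose and 3 fell. Of the 4 above background on all 6 arrays, 1 rose and 1 fell. Of the other marker lists, 3 of 9 tested endoneurial fibroblast markers rose and 1 fell, 4 of 8 mural markers rose and 1 fell, and 5 of 8 meningeal markers fell. Falls were also called for 4 of 6 mast cell markers, for 3 of 10 adipocyte markers (1 rose) and for 1 of 5 melanocyte markers. Among markers above background on all 6 arrays, these falls were 2 of 4, 2 of 8 and 0 of 3. Of 9 astrocyte markers 1 rose and 2 fell, and of 6 tested oligodendrocyte markers 1, Mobp, rose and 3 fell, while Opalin was above background on no array. Of the 4 oligodendrocyte markers above background on all 6 arrays, 2 fell and none rose. The part of these other cells in the results below was not tested. In bulk tissue, fewer cells of a type and less RNA per cell cannot be told apart.

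Of 32808 tested probes, 9792 (29.8%) were called, 4951 higher and 4841 lower at 5 W. With 1 probe per gene, 2693 of 16525 genes (16.3%) had risen and 2355 (14.3%) had fallen, and these 2 shares are the background for the counts of each gene list below. The median difference was 0.03 over the tested genes. Without overlap between the P0 and 5 W arrays stood 9753 of the called probes (99.6%) and 20132 of all tested probes (61.4%). A change of more than 4-fold was called for 1616 rises and 2101 falls, and one of more than 16-fold for 201 rises and 364 falls. The signal at 1 of the stages was below the limit of measurement for part of the calls: 524 probes were above background on no P0 array and 694 on no 5 W array, and for these only a lower bound on the fold is given.

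**Figure D1:**
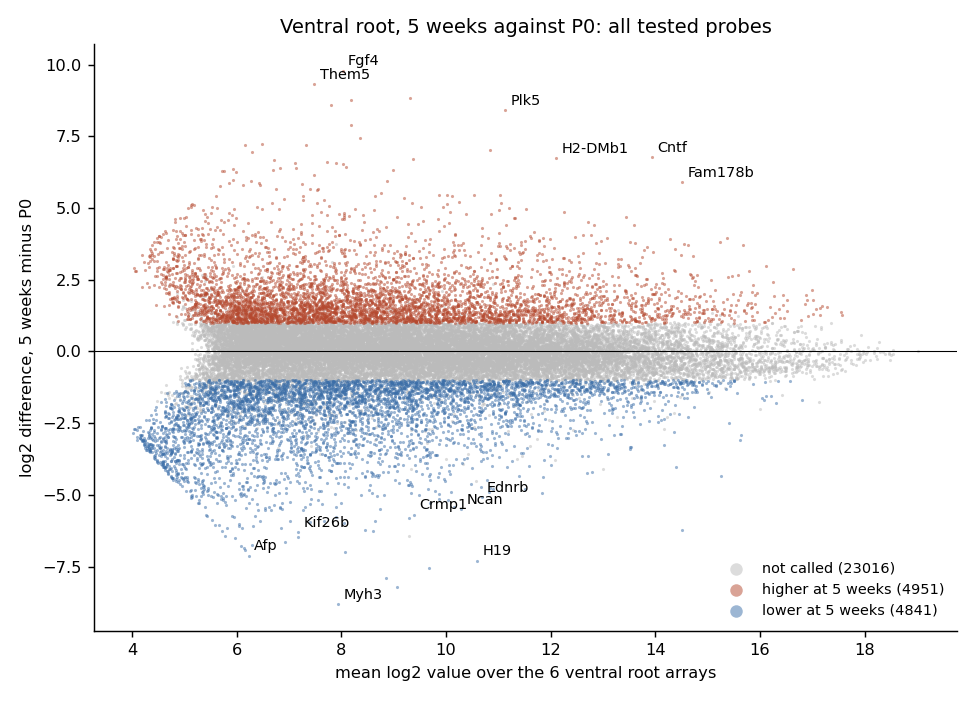
Each point is 1 of the 32808 tested probes, placed by its mean log2 value over the 6 ventral root arrays and by its log2 difference, 5 weeks minus P0. Called rises (4951, red) and called falls (4841, blue) lie on both sides of the line at 0 across the range of levels, and probes not called are grey.

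The rises of greatest size among genes measured on all 6 arrays were led by Plk5, a member of the polo-like kinase family (probe at chr10:79828119-79828178, plus strand), whose levels were 7.03, 7.08 and 6.65 at P0 and 14.95, 15.90 and 15.14 at 5 W (log2 difference 8.41 ± 0.28 (SE), adjusted p = 1.57e-05). The 3 arrays at 5 W all lay far above the 3 at P0, a 341-fold difference. Cntf, the ciliary neurotrophic factor that Schwann cells make and that supports motor neurons (probe at chr19:12838236-12838295, minus strand), had levels of 11.08, 9.99 and 10.60 at P0 and 17.02, 17.64 and 17.32 at 5 W (log2 difference 6.77 ± 0.31 (SE), adjusted p = 2.89e-05). The other large rises were Lctl, a klotho-family protein (7.01 ± 0.20), the class II antigen-processing genes H2-DMb1 (6.74 ± 0.31) and Cd74 (5.46 ± 0.28), Fam178b (5.90 ± 0.28), Adamtsl1 (5.47 ± 0.20), the ciliary gene Ccdc37 (5.46 ± 0.28), the Cajal band protein Drp2 (5.45 ± 0.24), Slamf9 (5.42 ± 0.18), the lens filament gene Bfsp2 (5.34 ± 0.15) and the cartilage gene Lect1 (5.20 ± 0.28), with adjusted p between 1.21e-05 and 4.74e-05.

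Falls of the same order were led by H19, the imprinted non-coding RNA of fetal tissue (probe at chr7:149762173-149762232, minus strand), with levels of 14.01, 14.53 and 14.17 at P0 and 7.06, 7.18 and 6.59 at 5 W (log2 difference -7.29 ± 0.22 (SE), adjusted p = 1.56e-05, a 157-fold fall). Crmp1, a collapsin response mediator of growing axons (probe at chr5:37683228-37683287, plus strand), stood at 11.98, 12.39 and 12.35 at P0 and 6.04, 7.07 and 6.54 at 5 W (log2 difference -5.69 ± 0.28 (SE), adjusted p = 3.64e-05). The neural matrix proteoglycan Ncan fell by 5.50, the endothelin receptor gene Ednrb, needed by neural crest derivatives, fell by 5.09 and the receptor phosphatase gene Ptprz1 fell by 5.03. The sodium channel gene Scn10a of pain-sensing neurons fell by 5.27, and Vstm2l fell by 5.13. Actn2, a protein of the muscle Z disc, fell by 5.43 with a wide SE of 0.96. The stefin genes Stfa2 (-5.80 ± 0.37) and Stfa3 (-5.49 ± 0.37) fell, and as members of a cluster of near-identical copies their probes may share transcripts. One Nfe2l2 probe fell by 5.18, whereas another rose (2.02 ± 0.36, adjusted p = 0.00411). For Ptpn5, 2 probes fell (-5.01 and -6.26) and 2 others were not called (0.34 and -0.13).

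Where a stage was not above background, the probe gave a lower bound. Fgf4, a fibroblast growth factor known from the embryo, had levels of 4.29, 2.54 and 2.55 at P0 and 12.89, 13.03 and 12.83 at 5 W and was at least 228-fold higher at 5 W. Other such rises were Cyp2j13 (at least 179-fold), the thioesterase Them5 (133-fold), the fatty acid hydroxylase Cyp4f14 (129-fold) and the secreted phospholipase Pla2g5 (127-fold), each as the least fold. The cytochrome P450 genes belong to multigene families, and of 4 tested Cyp2j13 probes the brightest was not called (-0.20 ± 0.23). Myh3, the embryonic myosin heavy chain of skeletal muscle, had levels of 10.99, 14.05 and 12.01 at P0 and 2.61, 5.33 and 2.67 at 5 W and was at least 158-fold lower at 5 W. Bounds on falls were 38.8-fold for a probe of the kinesin Kif26b, 36.8-fold for Col10a1 of hypertrophic cartilage, 31.4-fold for Nell1, 30.7-fold for a probe of the kainate receptor gene Grik1 and 26.9-fold for alpha-fetoprotein (Afp), whose P0 arrays were far apart (9.35, 12.91 and 7.10). A second Kif26b probe fell too (-5.90 ± 0.29), whereas a dimmer one was not called (-0.39 ± 0.33).

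**Figure D2:**
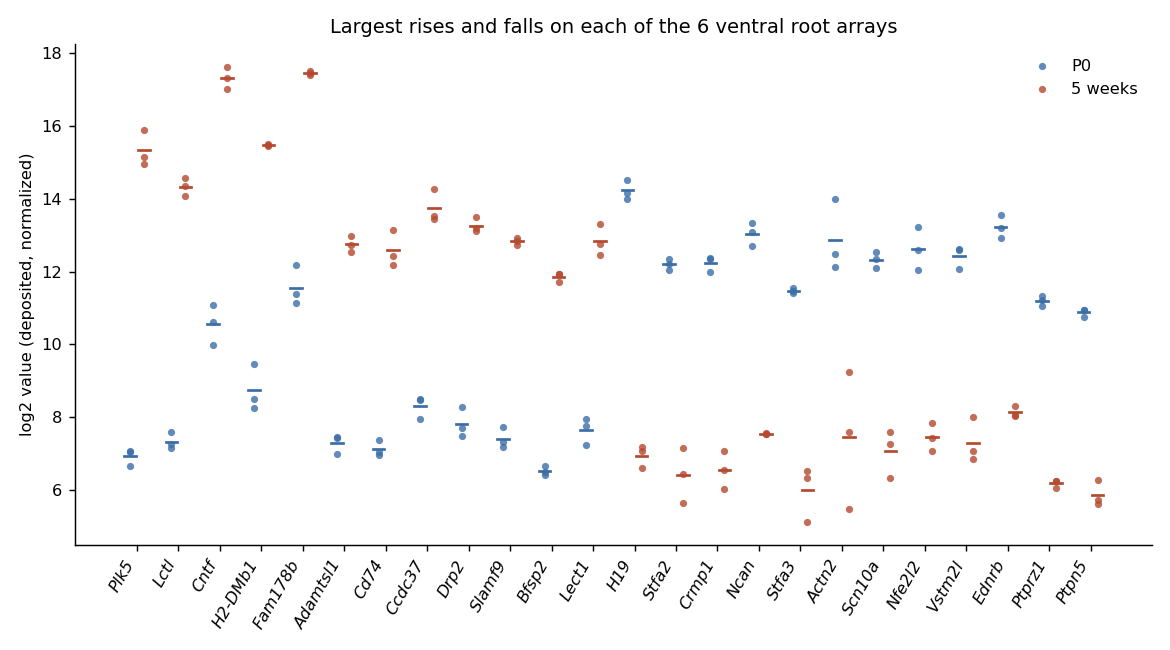
Each point is the deposited log2 value of 1 gene on 1 array, P0 and 5 weeks side by side for 24 genes, with a bar at the mean of the 3 arrays of a stage. The 12 largest rises and the 12 largest falls measured on all 6 arrays are shown, and for each gene the 3 arrays of a stage lie apart from the 3 of the other.

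Myelin genes moved unevenly. Of 20 genes of myelin proteins, 10 rose and 2 fell, and their median difference was 1.08. Mbp, myelin basic protein, which holds the cytoplasmic faces of the sheath together, had levels of 14.39, 14.04 and 14.34 at P0 and 16.93, 16.88 and 16.94 at 5 W (log2 difference 2.66 ± 0.15 (SE), adjusted p = 5.31e-05). Drp2, which ties periaxin to dystroglycan in the outer Schwann cell membrane, gave 11.71, 10.63 and 10.92 at P0 and 15.77, 16.09 and 15.49 at 5 W on its brightest probe (log2 difference 4.70 ± 0.31 (SE), adjusted p = 8.54e-05). Pmp2, the fatty acid binding protein of peripheral myelin, rose by 2.31, the connexin gene Gjb1 by 2.22, Cd9 by 1.94, the tight junction gene Cldn19 by 1.81, Ncmap by 1.78, Cmtm5 by 1.51, Pllp by 1.37 and Mal by 1.26.

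Among the members not called were Pmp22 (0.32 ± 0.14), a tetraspan protein of compact myelin, Prx, which encodes periaxin (0.39 ± 0.16), Mag (0.39 ± 0.17) and Cnp (0.64 ± 0.13). Those that fell were Gjc3 (-1.71 ± 0.32), a connexin of glia, and Mpzl1 (-1.11 ± 0.19).

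The transcription factors behind myelination were called about as often as all genes, 4 of 13. Only Nab2, the co-regulator of Egr2, rose (1.44 ± 0.21), and 3 of 13 fell. Pou3f1 (Oct6), which marks the promyelinating Schwann cell, stood at 15.02, 14.31 and 14.66 at P0 and 12.56, 11.18 and 11.50 at 5 W (log2 difference -2.92 ± 0.38 (SE), adjusted p = 0.00116), and its relative Pou3f2 (Brn2) fell (-1.78 ± 0.25), as did Tead1 (-1.01 ± 0.19). Egr2 itself was not called, with levels of 15.42, 15.26 and 15.17 at P0 and 15.97, 15.55 and 15.80 at 5 W (log2 difference 0.49 ± 0.16 (SE), adjusted p = 0.0454), nor was Sox10 (0.65 ± 0.22). In the neuregulin pathway, through which axons tell Schwann cells how thick to make the sheath, the receptor gene Erbb3 fell (-1.46 ± 0.14), as did the ligand genes Nrg2 (-1.47 ± 0.18) and Nrg3, which was above background on no 5 W array (at least 1.96-fold lower). Erbb2 (-0.38 ± 0.19), Nrg1 (-0.43 ± 0.36), Lgi4 (0.25 ± 0.16) and Adgrg6 (0.19 ± 0.16) were not called.

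Genes of lipid synthesis rose together. Of 23 genes of sterol synthesis, 15 rose (65.2%) and none fell, with a median of 1.42. Hmgcs1, the synthase that supplies HMG-CoA for cholesterol, had levels of 16.34, 15.82 and 15.88 at P0 and 17.88, 17.53 and 17.97 at 5 W (log2 difference 1.78 ± 0.21 (SE), adjusted p = 0.00068). Further along the pathway rose Idi1 (1.48 ± 0.20), Fdps (1.33 ± 0.17), Fdft1 (1.82 ± 0.15), Sqle (1.21 ± 0.23), Lss (1.45 ± 0.17), Cyp51 (1.11 ± 0.22) and Sc5d (2.36 ± 0.20). The sterol-sensing factor gene Srebf2 (0.09 ± 0.26) was not called. Of 24 genes of fatty acid and galactolipid synthesis, 14 rose and none fell (median 1.22). Ugt8a, which makes the galactosylceramide of myelin, had levels of 13.29, 12.47 and 13.18 at P0 and 15.88, 15.90 and 15.57 at 5 W (log2 difference 2.80 ± 0.25 (SE), adjusted p = 0.000242), Fa2h, which hydroxylates its fatty acid, rose by 1.81, and the ceramide synthase gene Cers2 by 2.52. Degs2, a desaturase and hydroxylase of dihydroceramide, was above background on no P0 array (4.40, 4.32 and 4.45) and on all at 5 W (10.35, 10.65 and 10.69), at least 44.6-fold higher. Fasn (0.71 ± 0.13) and Acaca (0.42 ± 0.14), which build the fatty acid chain, were not called.

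Since the sterol genes rose together, their promoters were read (RefSeq, GRCm38.p6). The letters TCACCCCAC, a form of the sterol regulatory element, were in 1 of 19 promoters of 16 sterol genes (5.26%) and in 0.551% of 32851 promoters of all genes, each 300 bases long (250 before the start site and 50 after, both strands). CCAAT, the box of the factor NF-Y, was in 78.9% and 37.4%. A match of letters is a description and not a bound site. The promoter with the sterol letters is that of Hmgcs1, shown as the 150 bases before its start (chr13:119690201-119690350, plus strand), with the sterol letters and the CCAAT box in capitals, the box reading ATTGG on this strand:
Hmgcs1: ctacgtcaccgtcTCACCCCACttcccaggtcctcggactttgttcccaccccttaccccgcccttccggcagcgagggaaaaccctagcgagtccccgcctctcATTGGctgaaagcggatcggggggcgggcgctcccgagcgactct

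Genes of the immature Schwann cell fell. Of 23 tested, 14 fell and 1 rose (median over the list -1.74). Gap43, a growth-associated protein of axons and immature Schwann cells, had levels of 12.83, 13.37 and 13.46 at P0 and 8.03, 8.64 and 8.67 at 5 W (log2 difference -4.77 ± 0.26 (SE), adjusted p = 4.51e-05). Ncam1, the adhesion molecule kept by Schwann cells that do not myelinate, stood at 13.65, 13.93 and 13.79 at P0 and 10.29, 10.24 and 10.78 at 5 W (log2 difference -3.35 ± 0.19 (SE), adjusted p = 5.5e-05), and L1cam of the same superfamily fell (-2.04 ± 0.15). The brain-type fatty acid binding protein gene Fabp7 (-4.72), the adhesion gene Chl1 (-1.85), and the transcription factor genes Pax3 (-3.76), Id2 (-3.53), Sox2 (-2.57) and Tfap2a (-2.31) fell. Sox2 holds Schwann cells in the immature state, and its 3 P0 arrays (10.78, 10.44 and 10.42) all lay above its 5 W arrays (7.68, 7.90 and 8.36). The low-affinity neurotrophin receptor gene Ngfr (log2 difference -1.13 ± 0.42 (SE), adjusted p = 0.063), Jun (-0.63 ± 0.29) and Notch1 (-0.39 ± 0.43) were not called. Cdh19, a cadherin of the Schwann cell lineage, was the 1 that rose (1.78 ± 0.27).

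Division genes had the highest share of falls among the gene lists. Of 68 tested genes of the cell cycle and DNA replication, 63 (92.6%) fell and none rose, against 14.3% of all genes, and the median was -2.62. Top2a, the topoisomerase that untangles chromosomes, had levels of 12.45, 12.60 and 12.51 at P0 and 8.39, 8.09 and 8.87 at 5 W (log2 difference -4.07 ± 0.22 (SE), adjusted p = 4.53e-05, a 16.8-fold fall). Cdk1, the mitotic kinase, had means of 10.57 ± 0.13 (SD) at P0 and 6.41 ± 0.26 (SD) at 5 W (log2 difference -4.17 ± 0.18 (SE), adjusted p = 2.47e-05). Cdc20, which starts anaphase (-3.24), Plk1 (-3.29), Ccnb2 (-3.28) and the replicative helicase subunits Mcm2 (-2.59), Mcm3 (-2.17), Mcm5 (-2.75), Mcm6 (-2.23) and Mcm7 (-1.62) fell too. Ccnd1, the G1 cyclin, had levels of 15.04, 15.26 and 15.20 at P0 and 12.90, 12.80 and 13.09 at 5 W (log2 difference -2.24 ± 0.15 (SE), adjusted p = 8.56e-05). The 5 not called were Pcna (-0.77 ± 0.14), Cdc6 (-0.87 ± 0.15), Gins2 (-0.60 ± 0.21), Dnmt1 (-0.96 ± 0.26) and Anln (-0.07 ± 0.19), the last of which also belongs to the myelin sheath's septin scaffold. The inhibitors of the cyclin-dependent kinases went both ways, as Cdkn1a (1.61 ± 0.19) and Cdkn2a (1.50 ± 0.37) rose while Cdkn1c (-4.35 ± 0.20) and Cdkn2c (-1.26 ± 0.14) fell.

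Promoters of the division genes were read for letters tied to the cell cycle. E2F letters (TTTGGCGC, TTTCGCGC, TTTCCCGC or TTTGCCGC on either strand) were in 21.7% of 60 promoters of 54 genes of the list and in 2.26% of all 32851. CCAAT was in 73.3% and 37.4%, and TTTGAA, the letters of the cell-cycle homology region read by the DREAM complex, in 43.3% and 17.9%. The 4 windows below are the 150 bases before the start of genes named above, given because they hold 1 or more of these letters, in capitals, and differ in which. Cdk1 (chr10:69352913-69353062, minus strand) holds all 3 kinds, Mcm5 (chr8:75109359-75109508, plus strand) E2F and CCAAT letters, and Cdc20 (chr4:118437344-118437493, minus strand) and Top2a (chr11:99024190-99024339, minus strand) CCAAT and TTTGAA letters:
Cdk1: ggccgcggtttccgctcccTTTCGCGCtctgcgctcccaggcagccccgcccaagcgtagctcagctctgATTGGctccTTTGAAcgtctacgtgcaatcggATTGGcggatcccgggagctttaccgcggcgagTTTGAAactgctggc
Mcm5: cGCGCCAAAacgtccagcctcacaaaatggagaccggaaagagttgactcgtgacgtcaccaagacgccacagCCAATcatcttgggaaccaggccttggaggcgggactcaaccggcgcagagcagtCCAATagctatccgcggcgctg
Cdc20: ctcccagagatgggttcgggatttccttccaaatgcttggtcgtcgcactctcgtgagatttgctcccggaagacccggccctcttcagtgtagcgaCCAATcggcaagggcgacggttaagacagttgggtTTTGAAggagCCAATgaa
Top2a: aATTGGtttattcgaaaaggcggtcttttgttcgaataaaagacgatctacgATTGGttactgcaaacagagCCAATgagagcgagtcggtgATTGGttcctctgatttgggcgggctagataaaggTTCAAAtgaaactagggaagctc

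Fetal growth genes, many of them imprinted, fell as well. Of 28 tested, 22 (78.6%) fell and 1 rose, with a median of -2.43. Igf2, the fetal insulin-like growth factor, had levels of 15.02, 15.31 and 15.24 at P0 and 11.54, 12.62 and 11.43 at 5 W (log2 difference -3.33 ± 0.33 (SE), adjusted p = 0.000358), and H19, transcribed beside it, fell by 6.23 on its brightest probe. The RNA-binding protein genes Igf2bp1 (-2.43), Igf2bp2 (-3.22) and Igf2bp3 (-4.63) fell, and so did the imprinted genes Mest (-3.60), Nnat (-4.29), Dlk1 (-2.12), Peg3 (-2.40) and Meg3 (-2.29). Hmga2, a chromatin protein of growing tissue, stood at 10.74, 11.86 and 11.90 at P0 and 8.06, 7.59 and 8.30 at 5 W (log2 difference -3.52 ± 0.36 (SE), adjusted p = 0.000424). Lin28b, which blocks maturation of let-7 miRNAs, had levels of 7.94, 7.79 and 7.85 at P0 and 2.84, 2.57 and 2.67 at 5 W, at least 7.04-fold lower at 5 W, where no array was above background. The member that rose was Sgce (1.01 ± 0.14). In the insulin-like growth factor system as a whole 3 of 14 fell and 1 rose, the falls being Igf2, Igfbp2 (-2.82 ± 0.27) and Igfbp1 (-3.63 ± 1.05), while Igf1 (0.58 ± 0.26) and its receptor gene Igf1r (-0.27 ± 0.32) were not called.

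**Figure D3:**
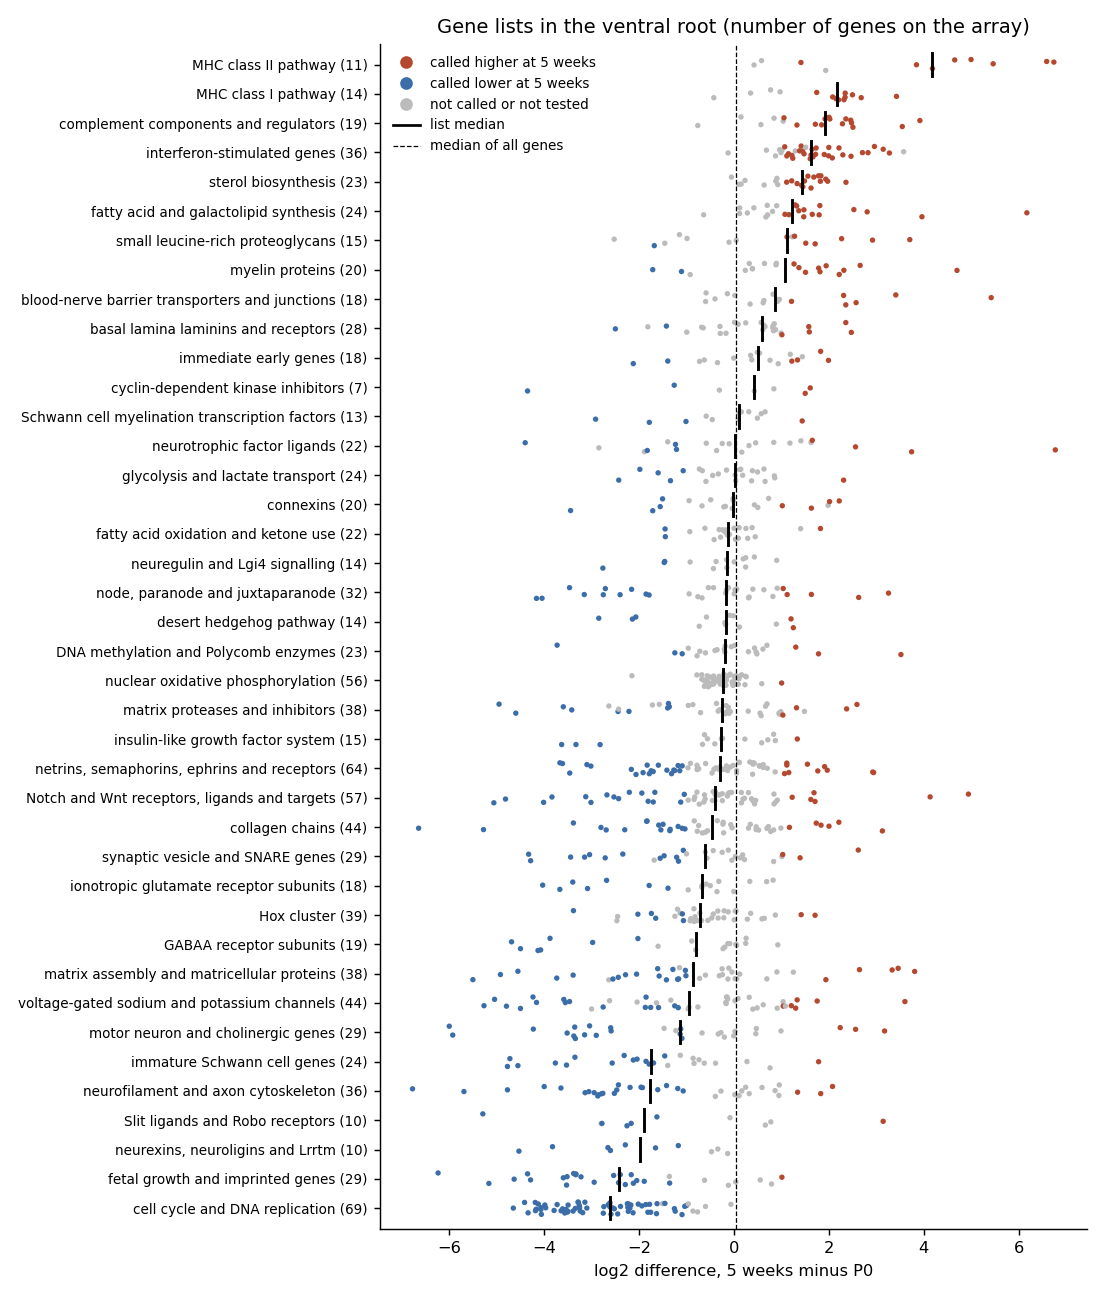
Each point is 1 gene of a list at its log2 difference, 5 weeks minus P0, red where called higher, blue where called lower and grey where not called or not tested, with the list's median as a bar and the median of all genes on the array as a dashed line. The division, fetal and neurofilament lists lie to the left of the line, and the sterol, MHC, interferon and complement lists to its right.

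Genes of axons and neurons mostly fell, beside the falls of sensory, spinal and muscle markers given above. Of 36 neurofilament and axon cytoskeleton genes 22 fell and 3 rose (median -1.77). The neurofilament subunit genes Nefl (14.58, 15.11 and 15.59 at P0 and 12.47, 12.65 and 12.85 at 5 W, log2 difference -2.44 ± 0.27 (SE), adjusted p = 0.000605), Nefm (-3.06 ± 0.32) and Nefh (-1.42 ± 0.15) all fell, as did Ina (-3.14 ± 0.19) and peripherin (Prph, -4.0 ± 0.25). Doublecortin (Dcx), a microtubule protein of young neurons, had levels of 9.25, 9.62 and 9.53 at P0 and 2.92, 2.50 and 2.67 at 5 W and was at least 21.5-fold lower at 5 W. Tubb3 (-2.86) and Stmn2 (-2.52) fell too. Kif5b (1.83 ± 0.24), Sncg (2.07 ± 0.15) and Stmn1 (1.34 ± 0.14) rose. Tuba1a (0.16 ± 0.14) and Dync1h1 (0.24 ± 0.18) were not called.

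Motor neuron and cholinergic genes fell in 15 of 26 and rose in 3, and of the 17 above background on all 6 arrays 7 fell and 3 rose. Isl1, a homeobox gene of both motor and sensory neurons, had levels of 8.52, 9.13 and 9.51 at P0 and 3.60, 2.88 and 2.67 at 5 W and was at least 16.1-fold lower. Chat, which makes acetylcholine and defines motor neurons, was not called (7.69, 7.66 and 7.10 at P0 and 7.63, 8.55 and 9.24 at 5 W, log2 difference 0.99 ± 0.41 (SE), adjusted p = 0.0871). Slc18a3, the vesicular transporter of acetylcholine, fell (-1.12 ± 0.35), as did the calcitonin gene-related peptide genes Calca (-3.38 ± 0.36) and Calcb (at least 8.07-fold lower), which sensory neurons also express, the acetylcholinesterase gene Ache (at least 5.04-fold lower) and the receptor gene Ret (-2.59 ± 0.24). Uts2, the urotensin peptide of motor neurons, rose, with means of 7.57 ± 0.47 (SD) at P0 and 10.74 ± 0.27 (SD) at 5 W (log2 difference 3.17 ± 0.27 (SE), adjusted p = 0.000219), and so did Spp1 (2.56 ± 0.37) and the GDNF receptor gene Gfra1 (2.24 ± 0.24). Schwann cells and macrophages express Spp1 too.

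Of the 9 genes that the study took to RT-qPCR, 6 are read here on the arrays. Slit2, the repellent ligand of commissural and motor axons, rose from 10.41, 10.05 and 10.41 at P0 to 13.46, 13.31 and 13.52 at 5 W (log2 difference 3.14 ± 0.16 (SE), adjusted p = 4.08e-05), an 8.82-fold rise, and was the member of its list of 9 that rose. Its receptor gene Robo1 fell (-2.26 ± 0.17), and so did Robo2, which was above background on no 5 W array (8.83, 8.91 and 8.89 at P0 and 4.14, 2.61 and 4.01 at 5 W, at least 14.3-fold lower). Nlgn1, a postsynaptic adhesion protein, had levels of 7.99, 7.97 and 7.76 at P0 and 5.97, 5.11 and 5.78 at 5 W (log2 difference -2.29 ± 0.24 (SE), adjusted p = 0.000502). Of 10 neurexin, neuroligin and Lrrtm genes, 7 fell and none rose. Unc13c, a priming factor of synaptic vesicles, fell by 1.17 (8.27, 8.66 and 8.81 at P0 and 6.53, 8.12 and 7.58 at 5 W, adjusted p = 0.0494), and Gabrb2 of the GABAA receptor fell by 2.03 (8.33, 8.43 and 8.23 at P0 and 6.91, 5.95 and 6.05 at 5 W, adjusted p = 0.00128). The neuropeptide gene Npy was above background on no 5 W array (8.49, 8.23 and 8.07 at P0 and 3.19, 3.53 and 2.67 at 5 W) and was at least 9.32-fold lower. Ncam1 is given above.

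Receptor and channel genes had more falls than rises, in part among genes that were above background on all arrays at P0 only. Of 13 GABAA subunit genes 7 fell and none rose, but with the filter set to all 6 arrays above background 1 was called lower. Ionotropic glutamate receptor genes fell in 7 of 16 and rose in none, with 3 falls under that filter, and among those measured on all 6 arrays was the AMPA receptor gene Gria2 (12.15, 12.62 and 12.24 at P0 and 8.99, 9.05 and 8.78 at 5 W, log2 difference -3.40 ± 0.18 (SE), adjusted p = 4.2e-05). Of 29 genes of synaptic vesicles and SNAREs, 12 fell and 3 rose. Syt1, the calcium sensor of release, stood at 11.44, 11.72 and 11.90 at P0 and 7.27, 7.47 and 7.47 at 5 W (log2 difference -4.29 ± 0.17 (SE), adjusted p = 2.19e-05), while Snap25 (-1.0 ± 0.51), Vamp2 (0.22 ± 0.14) and Syp (-0.05 ± 0.21) were not called. Voltage-gated sodium and potassium channel genes fell in 16 of 38 and rose in 6, and of the 30 above background on all 6 arrays 9 fell and 6 rose. Kcnk1, a leak channel, rose (10.17, 8.94 and 9.38 at P0 and 12.88, 13.32 and 13.09 at 5 W, log2 difference 3.60 ± 0.32 (SE), adjusted p = 0.000243), whereas Kcnj10, the inward rectifier of glia, fell (14.83, 14.82 and 14.79 at P0 and 10.44, 10.58 and 10.72 at 5 W, log2 difference -4.24 ± 0.14 (SE), adjusted p = 1.56e-05).

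The node of Ranvier and its flanks, where axon and Schwann cell meet, gave changes in both directions. Of 30 genes 5 rose and 10 fell, which is 16.7% and 33.3% against 16.3% and 14.3% of all genes. Of the 26 above background on all 6 arrays 5 rose and 7 fell, beside 2143 rises and 1658 falls of 14660 such genes in all. Nfasc, whose glial form anchors the paranode, had levels of 12.37, 11.52 and 11.70 at P0 and 14.61, 14.49 and 14.36 at 5 W (log2 difference 2.63 ± 0.24 (SE), adjusted p = 0.000281), and Gldn, the gliomedin of the Schwann cell microvilli, rose (1.63 ± 0.15), as did the internodal adhesion genes Cadm3 (3.25 ± 0.18) and Cadm4 (1.12 ± 0.29). The paranodal axonal protein gene Cntn1 (-3.15 ± 0.15), the juxtaparanodal genes Cntn2 (-2.71 ± 0.34) and Cntnap2 (-4.04 ± 0.24) and the sodium channel gene Scn1a (-3.47 ± 0.42) fell. Scn8a, the channel of mature nodes (0.02 ± 0.19), Ank3 (0.63 ± 0.13) and Cntnap1 (-0.43 ± 0.14) were not called. With scan day or slide as a block, 3 in place of 5 rose.

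Genes of the matrix around the fibres changed in both directions. Of 40 collagen genes 16 fell and 6 rose. Col3a1, the fibrillar collagen of soft tissue, had levels of 16.77, 16.86 and 16.95 at P0 and 16.10, 15.85 and 15.53 at 5 W (log2 difference -1.03 ± 0.18 (SE), adjusted p = 0.00396), and Col1a1 (-0.22 ± 0.16) and Col1a2 (-0.04 ± 0.17) were not called. Col15a1 (2.21 ± 0.47), Col14a1 (1.73 ± 0.23), Col5a3 (2.0 ± 0.14) and Col23a1 (3.12 ± 0.16) rose. The cartilage collagen genes Col2a1 (-2.69 ± 0.41), Col9a1 (-2.30 ± 0.23) and Col11a1 (-1.84 ± 0.43) fell. Of 7 tested markers of cartilage and bone, 4 fell and 1, Lect1, rose (5.20 ± 0.28). Of the 4 markers above background on all 6 arrays, 1 fell and 1 rose. The part of cartilage and bone was not tested. Of 35 matrix assembly and matricellular genes, 17 fell and 5 rose. Postn, periostin, stood at 14.20, 14.37 and 14.31 at P0 and 9.53, 9.16 and 9.43 at 5 W (log2 difference -4.92 ± 0.15 (SE), adjusted p = 1.56e-05), Fn1, fibronectin (-1.42), and the fetal fibrillin gene Fbn2 (-3.73) fell, while the crosslinking enzyme Lox rose (11.61, 11.67 and 11.56 at P0 and 15.15, 15.70 and 15.42 at 5 W, log2 difference 3.80 ± 0.18 (SE), adjusted p = 3.07e-05).

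Small leucine-rich proteoglycans, which bind collagen fibrils, rose in 7 of 11 and fell in 1. Ogn had levels of 14.24, 13.46 and 13.75 at P0 and 17.48, 17.49 and 17.59 at 5 W (log2 difference 3.70 ± 0.22 (SE), adjusted p = 5.79e-05), and Prelp (2.27 ± 0.27), Dcn, decorin (1.51 ± 0.25), and Lum, lumican (1.12 ± 0.24), rose too. Of 26 basal lamina genes, 5 rose and 2 fell. The laminin chain gene Lama5 (2.47 ± 0.27) and the laminin receptor gene Itgb4 of the mature Schwann cell (1.58 ± 0.17) rose and the embryonic chain gene Lama1 (-2.50 ± 0.19) and Lama4 (-1.43 ± 0.17) fell, while Lama2, the main chain of the Schwann cell basal lamina, was not called (-0.30 ± 0.15). Among 30 proteases and inhibitors, 4 rose and 9 fell, with Adamts4 (2.59 ± 0.28) the largest rise and Mmp14, the membrane-bound activator of other proteases, among the falls (10.52, 10.48 and 10.40 at P0 and 8.07, 7.95 and 8.05 at 5 W, log2 difference -2.44 ± 0.13 (SE), adjusted p = 4.36e-05).

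Transport genes of the blood-nerve barrier rose in 6 of 18 and fell in none. Slc2a1, the glucose transporter of barrier endothelium and perineurium, had levels of 12.54, 12.78 and 12.59 at P0 and 14.65, 14.86 and 15.32 at 5 W (log2 difference 2.31 ± 0.21 (SE), adjusted p = 0.000242), and Abcb1a, the drug efflux pump, 9.67, 9.68 and 9.25 at P0 and 11.82, 12.15 and 12.35 at 5 W (log2 difference 2.57 ± 0.20 (SE), adjusted p = 0.000162). Slco1c1, a thyroid hormone carrier (3.41 ± 0.32), Slco1a4 (5.42 ± 0.23) and the lipid carrier Mfsd2a (2.35 ± 0.16) rose as well. Cldn5, the defining claudin of barrier endothelium, was not called (0.92 ± 0.40). Of 10 endothelial markers 2 rose and 1 fell, with a median difference of 0.47.

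Antigen presentation and innate immune genes rose without a fall in these 4 lists. Of 14 genes of the MHC class I pathway 10 rose (71.4%), of 9 tested genes of the class II pathway 8 (88.9%), of 34 interferon-stimulated genes 27 (79.4%) and of 18 complement genes 14 (77.8%), each against 16.3% of all genes. Cd74, the invariant chain of class II, had levels of 7.38, 6.97 and 7.05 at P0 and 12.19, 13.15 and 12.43 at 5 W (log2 difference 5.46 ± 0.28 (SE), adjusted p = 3.81e-05), and Ciita, the master regulator of class II genes, was above background on no P0 array (4.40, 4.39 and 4.13 at P0 and 7.75, 9.44 and 8.27 at 5 W) and was at least 10.6-fold higher at 5 W. B2m, the light chain of class I, stood at 14.05, 14.11 and 14.14 at P0 and 15.73, 16.10 and 15.70 at 5 W (log2 difference 1.74 ± 0.16 (SE), adjusted p = 0.000272), and H2-K1 and H2-D1 rose by 2.68 and 2.20. The class I and II genes belong to families of close copies, whose probes may share transcripts.

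Interferon-stimulated genes were led by Oas2 (3.27 ± 0.38), Iigp1 (3.14 ± 0.37) and Ifit1 (2.96 ± 0.52). Irf7 was not called (1.29 ± 0.63). Among complement genes, C4b had levels of 9.48, 9.81 and 9.03 at P0 and 12.83, 13.07 and 13.06 at 5 W (log2 difference 3.54 ± 0.22 (SE), adjusted p = 6.99e-05), and C1qa (2.28 ± 0.17), C2 (2.36 ± 0.24) and the regulator genes Cd55 (2.48 ± 0.17) and Cd59a (3.91 ± 0.13) rose, whereas C3 was not called (1.04 ± 0.58). Markers of macrophages moved with these genes. Of 13, 11 rose, and their summed signal was 21053 to 23691 at P0 and 74968 to 88660 at 5 W. Csf1r, the receptor that macrophages need to survive, rose by 2.0 and the resident macrophage gene Cd163 by 3.72, while Cx3cr1 (0.70 ± 0.61) and Trem2 (0.78 ± 0.25) were not called. Lymphocyte markers rose in 6 of 7, but from near background, with Cd2 and Ms4a1 above it on no P0 array. No neutrophil or erythroid marker was called. The part of these cells in the immune results was not tested.

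Genes of signals between cells were called in both directions, against 16.3% risen and 14.3% fallen of all genes. Of 15 neurotrophic ligand genes 4 rose (26.7%) and 4 fell (26.7%), 2 of the falls among genes above background on all 6 arrays. Beside Cntf, Fgf1 (12.55, 12.82 and 12.66 at P0 and 16.44, 16.45 and 16.37 at 5 W, log2 difference 3.74 ± 0.14 (SE), adjusted p = 1.98e-05) and Fgf7 (2.56 ± 0.28) rose. Ntf3, neurotrophin 3, which supports proprioceptive neurons and Schwann cells, was above background on all P0 arrays and on none at 5 W (6.35, 7.52 and 8.33 at P0 and 2.69, 3.64 and 2.67 at 5 W, at least 5.13-fold lower), and Bdnf (-1.83 ± 0.38), Mdk (-1.23 ± 0.14) and Ptn (-1.21 ± 0.12) fell. Netrins, semaphorins, ephrins and their receptors split into 10 rises (16.7%, near the share of all genes) and 20 falls (33.3%) of 60. Sema3g (2.92 ± 0.25) and Sema3b (1.96 ± 0.15) were among the rises. Sema3a (7.43, 7.32 and 7.02 at P0 and 3.90, 4.39 and 4.19 at 5 W, at least 4.65-fold lower) and Ephb2 (-3.46 ± 0.16) were among the falls. Notch and Wnt genes gave 6 rises (11.3%) and 16 falls (30.2%) of 53. Of the 43 above background on all 6 arrays 5 rose and 8 fell, beside 2143 rises and 1658 falls of 14660 such genes in all. Of the secreted Wnt binders, Frzb rose (8.99, 8.87 and 8.98 at P0 and 13.01, 13.20 and 13.03 at 5 W, log2 difference 4.13 ± 0.13 (SE), adjusted p = 1.56e-05). Sfrp2 fell and was above background on no 5 W array (8.77, 7.82 and 7.64 at P0 and 2.81, 2.51 and 3.73 at 5 W, at least 8.19-fold lower). Desert hedgehog (Dhh), by which Schwann cells instruct the perineurium, was not called (0.89 ± 0.14), nor were its receptor gene Ptch1 (-0.58 ± 0.43) and target Gli1 (-0.18 ± 0.20), while the hedgehog inhibitor gene Hhip fell (-2.85 ± 0.16).

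Genes of oxidative phosphorylation and of fatty acid oxidation were seldom called. Of 56 nuclear genes of oxidative phosphorylation 1 rose, Ndufa5 (1.0 ± 0.18), and none fell, against 16.3% and 14.3%, and the median was -0.22. In glycolysis and lactate transport 1 rose (Slc2a1) and 5 fell of 24, among them Eno3 (-1.98 ± 0.36), the enolase of muscle, and Eno2 (-1.07 ± 0.17), that of neurons. Fatty acid oxidation genes gave 1 rise, Ppara (1.82 ± 0.24), and 2 falls of 22, Cpt1b (-1.45 ± 0.39), the muscle form of the mitochondrial gate enzyme, and Bdh1 (-1.45 ± 0.34). Of 29 Hox genes 6 fell and 2 rose, of 23 DNA methylation and Polycomb genes 3 fell and 3 rose, with Uhrf1 (-3.73 ± 0.35) and Ezh2 (-1.25 ± 0.24) down and Ezh1 (1.78 ± 0.20) and Cbx7 (3.52 ± 0.27) up, and of 18 immediate early genes, which respond to handling of tissue as well as to activity, 4 rose and 2 fell, with Fos (1.18 ± 1.03) not called. Connexins gave 4 rises and 4 falls of 13.

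The arrays at 1 W and 3 W place these changes in time, as a description of group means with no test. The sterol genes had reached their level early, with a median difference from P0 that was 1.50 at 1 W and 1.51 at 3 W against 1.42 at 5 W, and the myelin protein genes likewise (0.97, 1.15 and 1.08). Hmgcs1 had mean levels of 16.01 ± 0.28 (SD), 17.86, 18.12 and 17.79 ± 0.23 (SD) at the 4 ages in order. The medians of the division genes were -0.61, -2.24 and -2.62 in the same order, so most of their fall lay between 1 W and 3 W. Top2a had means of 12.52 ± 0.08 (SD), 11.79, 9.44 and 8.45 ± 0.39. Complement and MHC class II genes had medians that were higher at each later age, the class II list with values of 1.93, 2.67 and 4.18 and the complement list 0.50, 1.55 and 1.92. Plk5 was near its P0 level at 1 W (7.31) and high at 3 W (12.22), whereas Cntf was already well above its P0 level at 1 W, with 14.58 and 17.07. Sensory neuron markers were already at a median of -3.93 at 1 W and spinal interneuron markers at -2.69. All 3 arrays at 3 W shared 1 slide with the 5 W replicate 3, so slide and the 3 W stage cannot be told apart there.

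**Figure D4:**
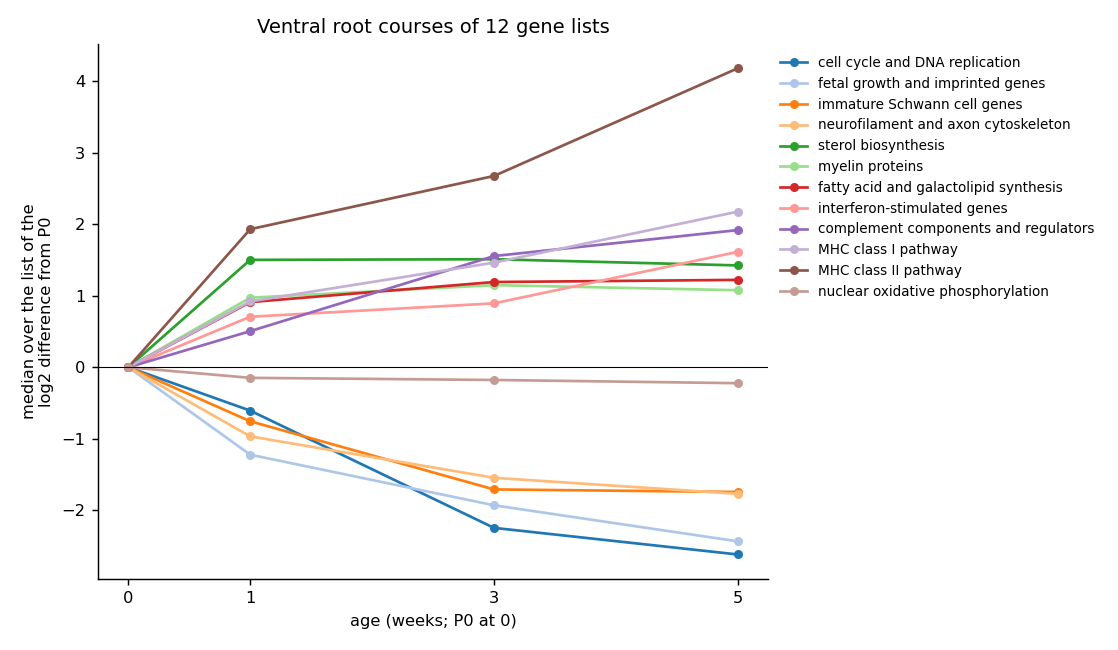
Lines give, for 12 gene lists, the median over the list's genes of the log2 difference from P0 in the ventral root at 1, 3 and 5 weeks, with 0 at P0. The sterol line is near its final height at 1 week (1.50, against 1.42 at 5 weeks), whereas the division line drops mainly between 1 and 3 weeks (-0.61 to -2.24) and the MHC class II line is highest at 5 weeks (4.18).

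Most of the EN calls were also made in the dorsal root. AN was compared in the same way on its own 6 arrays, and among the 32808 probes 8785 were called in AN. Called in the same direction in both roots were 7019 probes, which is 71.7% of the EN calls and 79.9% of the AN calls among these probes, and 6 were called in opposite directions. The test of the difference between the 2 changes called 45 of 34859 probes (0.129%), 17 with the higher value in EN and 28 in AN. AN and EN arrays of the same stage and number deviated together, and they also shared slide and scan day. With the replicate number as a block 598 probes (1.72%) were called, 213 higher in EN and 385 in AN, with all 45 among them. The 45 include probes of 36 named genes, for 27 of which a called probe was above background on at least 1 array of each stage in both roots.

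Of the genes with a change more positive in EN, Vwa5b2 had the largest difference, and its brightest probe changed by 0.25 in EN and -2.26 in AN (difference 2.52 ± 0.20, adjusted p = 0.00216). A second Vwa5b2 probe was called lower in EN (adjusted p = 2.09e-05), above background on all P0 arrays and on none at 5 W. Its difference between roots had the opposite sign and was not called (adjusted p = 0.358). Slit2 changed by 3.14 in EN against 1.21 in AN (difference 1.93 ± 0.20, adjusted p = 0.00638), and Kif5c, a kinesin of axonal transport, changed by 0.95 against -1.45 (difference 2.40, adjusted p = 0.00638). The palmitoyl transferase Zdhhc2 and Tmem28 differed by 2.18 and 1.87. A Cyp2j13 probe was called too, but was above background on no P0 array of either root, so the size of its difference was not measured. Of those more negative in EN and above background on all 12 arrays, Kcnj10 had the largest difference. It changed by -4.24 in EN and -1.02 in AN (difference -3.22, adjusted p = 0.00216), and Gpr37, a receptor gene of oligodendrocytes, by -3.87 and -1.25. Marveld3, a tight junction protein, a probe of Gabra4 and Kif26b were called as well (adjusted p = 0.00886, 0.0461 and 0.00283), but were above background on no EN array at 5 W, so the size of the difference was not measured. Klk6, a protease gene of oligodendrocytes, rose in both roots from a signal that was above background on no P0 array of either, so the size of its called difference (adjusted p = 0.0405) was not measured. The astrocyte markers in EN differed from those in AN by a median of -1.83 at 5 W and the oligodendrocyte markers by -1.55, against -0.10 and -0.07 at P0, and the part of central glia in these differences was not tested. Ncam1 changed by -3.35 in EN and -1.87 in AN (difference -1.48, adjusted p = 0.0475), and Erbb3 by -1.46 and -0.32 (difference -1.14, adjusted p = 0.0405).

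With the block, the difference was called for further genes named above. Plk5 rose more in EN (difference 1.26, adjusted p = 0.464 without the block and 0.0285 with it), as did Lect1 (2.52, 0.0594 and 0.0209) and Adamtsl1. Ncan and Ednrb fell more in EN, and Mbp rose less in EN (-1.29, 0.131 and 0.0412), as did Fam178b and Ccdc37. Uts2 had a rise in EN (3.17) and a negative value in AN (-1.15), but the difference of 4.32 was not called without the block (adjusted p = 0.175) or with it (adjusted p = 0.0519). At P0 the level of the myelinating Schwann cell markers was higher in EN than in AN by a median of 0.70, and at 5 W the median was -0.02.

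**Figure D5:**
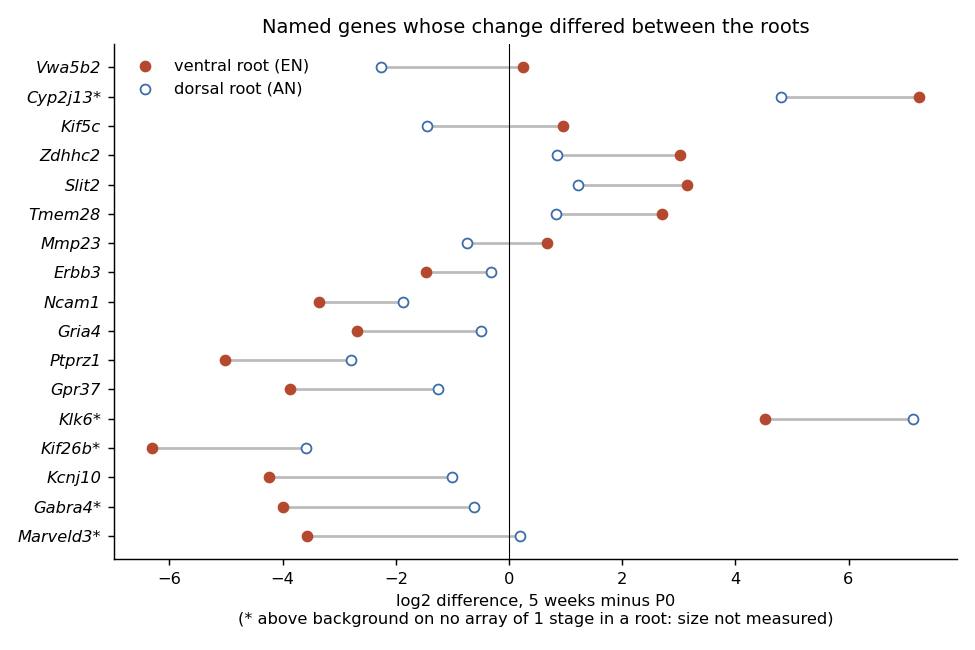
For each of 17 named genes whose change differed between the roots, a filled red point marks the log2 difference, 5 weeks minus P0, in the ventral root and an open blue point that in the dorsal root, joined by a line. A star marks a gene above background on no array of a stage in 1 or both roots, whose gap is not measured. Among the other genes the gap is widest for Kcnj10 (-3.22) on the lower side and for Vwa5b2 (2.52) on the higher side.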

How the data were processed

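Total RNA of ventral root (EN) and dorsal root (AN) fibres was labelled with Cyanine-3, 1 sample to an array (SurePrint G3 mouse design, Agilent). The authors deposited the scanner's spot intensity of each array, which Agilent Feature Extraction 10.7.1.1 had background-subtracted and detrended, with marks for spots well above background. Beside them, the authors deposited log2 values, quantile normalized in GeneSpring per the methods, and these were tested. Each of the 6 scanner files correlated best with its own log2 column (r of at least 0.997). Groups came from the nerve fibre and age on the labels, and no array was left out. No value column was without a sample.

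Of 56605 gene probes, 43580 were named by the gene name in the scanner files where it is a gene of the RefSeq table (GRCm38.p6), for 24690 genes in all, and 17 whose accession pointed to another gene were left unnamed. Tests were run with limma 3.58.1 (lmFit and eBayes) in R 4.3.3 and were also run on simulated data, and tables and figures were made with Python 3.11.15. The difference between roots was fitted on 12 arrays over probes above background on all 3 arrays of any of the 4 groups. A probe that was above background on no array of 1 stage was given a bound, the mean of the brighter stage minus the mean over the dim arrays of the lowest level still above background or the probe's own, whichever was higher. EN and AN arrays of the same stage and replicate number deviated from their group means together (r of 0.472 to 0.636 across probes). They were treated as pairs in the block, and the blocked value is printed for some of the genes whose call it changed. Such arrays also shared slide and scan day. At 5 W each replicate number had its own slide and scan day, so a pairing of samples and the slide cannot be told apart there. P0 and 5 W arrays of the same number were not paired (r of 0.288, 0.025 and 0.005).

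Genes were named by a rule, and some that it names are not reported here. They are the 12 largest called rises and falls measured on all 6 arrays without overlap between the stages, and the 6 largest bounds in each direction. Added to these are the 9 genes of the study's RT-qPCR, members of the gene lists, and the 6 largest differences between roots in each direction. Other probes of these genes, Mmp23, Gria4 and Ptprz1 among the root differences, and the promoters shown were chosen after their values were seen. The lists and the comparison were chosen with earlier results of these data known. Array signal over background, not depth, limits what could be measured, and 3 arrays a stage limit the precision. Alternatives covered normalization, background, filter, blocks, weights and leaving out each array, and those with scan day were chosen after seeing the data.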

Additional observations from a re-analysis of the deposited data

Results flagged for a closer look

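Limma's test of the difference between the roots in the change from P0 to 5 W (12 arrays) called 0.129% of probes, with 36 named genes among them, and 17 of these, named by the rule for naming genes or members of the gene lists, are given here. Values are the fitted log2 change in EN minus that in AN. For Marveld3, Gabra4 and Kif26b (no EN array above background at 5 W) and Klk6 and Cyp2j13 (none at P0) the fitted value is no measured size and has no rank. Lower in EN were Marveld3 (-3.76, adjusted p = 0.00886), Gabra4 (-3.37, adjusted p = 0.0461), Kcnj10 (-3.22, adjusted p = 0.00216), Kif26b (-2.72, adjusted p = 0.00283), Klk6 (-2.62, adjusted p = 0.0405), Gpr37 (-2.62, adjusted p = 0.00262), Ptprz1 (-2.23, adjusted p = 0.00827), Gria4 (-2.18, adjusted p = 0.0405), Ncam1 (-1.48, adjusted p = 0.0475) and Erbb3 (-1.14, adjusted p = 0.0405). Higher in EN were Vwa5b2 (2.52, adjusted p = 0.00216), Cyp2j13 (2.43, adjusted p = 0.0195), Kif5c (2.40, adjusted p = 0.00638), Zdhhc2 (2.18, adjusted p = 0.032), Slit2 (1.93, adjusted p = 0.00638), Tmem28 (1.87, adjusted p = 0.0118) and Mmp23 (1.41, adjusted p = 0.044). Probes of a gene did not always move alike. A second probe of Vwa5b2 had a difference between roots of -2.23 (adjusted p = 0.358), the brighter probe of Gabra4 one of -0.53 (adjusted p = 0.993) and the brighter probe of Tmem28 one of 0.16 (adjusted p = 0.979), so that these differences rest on 1 probe each. Other Kif26b probes had differences of -2.42 (adjusted p = 0.072) and -0.52 (adjusted p = 0.899), neither of them called.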

How the results depend on the processing

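The count of probes called between P0 and 5 W in EN was 9792 and lay between 6707 and 10858 under the other filters, normalizations, weights and blocks, and between 9042 and 9954 when each array was left out in turn. With 1 probe per gene, which tests fewer features, it was 5061. P0 and 5 W arrays share only a number (deviations correlated at r = 0.288, 0.025 and 0.005, and 2 of 6 arrays were closest to the array of their own number), and with the replicate block 9807 probes were called, 4946 higher and 4861 lower. The count for the difference between roots was less stable. Against 45, it was 1497 without adjustment, 80 with 1 probe per gene, 302 with array weights, 355 with all 24 arrays in the fit, 24 without the filter on dim probes, 95 with normexp background, 598 with the replicate block, 337 with scan day as a block and 711 with slide as a block, and 44 to 46 under the 3 remaining settings. Of the 45 probes, those 3 settings also called 26 (filter on all compared arrays), 31 (scanner signal scaled to the 75th percentile) and 45 (scanner signal, quantile normalized). The cause of these moves was not tested. Leaving out each of the 12 arrays gave 18 to 375. The arrays that moved it by more than 1.5 times were AN 5 W replicates 1 (24) and 3 (375), AN P0 replicates 1 (26), 2 (27) and 3 (25), EN 5 W replicate 2 (23) and EN P0 replicates 1 (22), 2 (21) and 3 (18). One value reversed among the genes. The brightest Grik1 probe, not called at -0.97, was 1.46 with scan day as a block and 1.50 without EN 5 W replicate 3, and -2.24 at the lowest when another array was left out. EN 5 W replicate 3 had the lowest value of this probe at 5 W, whereas 3 other Grik1 probes fell. Counts of lists that lie near background moved most. With the filter set to all 6 arrays, the falls were 1 in place of 7 for GABAA subunits, 7 in place of 15 for motor neuron genes, 3 in place of 7 for sensory neuron markers, 3 in place of 7 for glutamate receptors 8 in place of 16 for Notch and Wnt genes and 9 in place of 16 for sodium and potassium channels, and the rises of lymphocyte markers were 1 in place of 6. Protease rises were 7 in place of 4 and connexin rises 2 in place of 4 without EN 5 W replicate 1. Of all list counts recomputed, 1805 stayed within 1.5 times and 115 did not. Signal over background limits every gene that is dim at 1 stage to a bound.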
